A study of Mus musculus with 9 samples.

Results

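The C-type lectin domain family was described here as every gene on the array whose symbol starts with Clec and a digit. Of 19057 genes that a probe with 1 symbol measures, 30 belong to it, with 52 probes between them, and 22 of the 30 lie on chromosome 6. The samples were splenic Gr-1+ (Ly6G+) cells, a selection that takes in neutrophils and related myeloid cells. Magnetic purification took place on day 7 after the transplant of bone marrow, and RNA was taken where purity exceeded 97%. The KO group was allogeneic hosts of strain B6.129-Ido1tm1Alm/J, which lack IDO1, the enzyme that starts tryptophan breakdown. The WT group was allogeneic hosts of strain C57BL/6 (B6), and the syngeneic group was C57BL/6 (B6) hosts without graft-versus-host disease. Each group had 3 Illumina BeadChip arrays. The sources used here give neither age nor donor strain. They do not say whether arrays of 1 group stem from different animals, so the p-values rest on a spread between arrays that may be technical. The comparison of KO with WT hosts asks what IDO1 of the host does to these cells, and the syngeneic group shows cells after a transplant without an allogeneic response.

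C-type lectin receptors bind sugars, lipids or proteins of microbes, dead cells and other cells through a shared fold. Activating receptors such as Dectin-2 (Clec4n) and Mincle (Clec4e) pair with the Fc receptor gamma chain (Fcer1g), whose activation motif recruits the kinase Syk and, through Card9, turns on NF-kB and cytokine genes. Dectin-1 (Clec7a), CLEC-2 (Clec1b) and DNGR-1 (Clec9a) carry a shortened form of such a motif in their own tails, and other members carry an inhibitory motif that recruits phosphatases. Neutrophils, monocytes, macrophages and dendritic cells each carry their own set of these receptors, while the Clr proteins of the Clec2 group are ligands of NK cell receptors.

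WT replicate 2 stood apart from the other arrays before any comparison was made. Its mean r with WT replicates 1 and 3 over all tested genes was 0.919, against 0.998 between those 2. Among the 19 family genes tested, it lay below both other WT arrays in 12 and above both in 4, and the gap exceeded 1 on the log2 scale in 8 genes that were lower and 1 that was higher. The targeted gene, Ido1, read -2.3, 0.6 and -8.1 in KO arrays, 24.6, 33.8 and 20.0 in WT arrays and 7.6, 3.9 and 13.3 in syngeneic arrays. It was above the background limit of 14.3 in WT arrays only. The summed signal of 11 neutrophil markers was 190710 to 202107 in KO arrays, 109087 to 192800 in WT arrays (lowest in WT replicate 2) and 187048 to 193563 in syngeneic arrays. Mmp8 was below the limit throughout. In WT replicate 2 the sum came mainly from Mpo, Elane and S100a8, at 31053, 29464 and 23175. Other markers were far lower there than in WT replicates 1 and 3. Retnlg read 295 against 28562 and 30316, and Mmp9 33.0 against 5695 and 6403. Cxcr2 read 32.8 against 1148 and 1075, and Csf3r 13.2 against 453 and 468. S100a9, Camp and Ngp were lower by less. The 10 monocyte and macrophage markers summed to 20559 to 24655 in KO arrays, 6044 to 18352 in WT arrays (lowest in WT replicate 2) and 82318 to 82750.3 in syngeneic arrays. Summed T cell markers (10 genes) were 11824 to 21308 in KO arrays, 7004 to 42570.1 in WT arrays (highest in WT replicate 2) and 9101 to 9737 in syngeneic arrays. Erythroid markers (8 genes) summed to 2222 to 9873 in KO arrays, 10089 to 56940.5 in WT arrays (highest in WT replicate 2) and 64906 to 66159.9 in syngeneic arrays. The NK cell, B cell and eosinophil, basophil and mast cell lists were also highest among WT arrays in WT replicate 2. The syngeneic and WT arrays shared 1 chip and the KO arrays lay on another, so wherever KO is compared the genotype cannot be told apart from the chip. Results that turn on WT replicate 2 are given with and without it.

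Of the 30 genes, 19 had a probe above the background limit on at least 3 of the 9 arrays and were tested. Passing the filter in 1 group is enough, so these 19 do not stand for all members. In the signals by gene, Clec2d, Clec4n, Clec4a3 and Clec5a were brightest, and Clec2i, Clec4g and Clec3b were closest to the limit. The other 11 were Clec10a, Clec12b, Clec14a, Clec18a, Clec2g, Clec2l, Clec2m, Clec3a, Clec4a2, Clec4a4 and Clec4f, whose signals lay between -15.4 and 14.6. Just outside the filter, Clec4a4 exceeded the limit on 1 array; just inside it, Clec1b, Clec3b and Clec12a exceeded it on 8 arrays and the remaining 16 genes on all 9. Signals of different probes are not levels per length, so the order of brightness is a description of the probes. In this order neighbours such as Clec4d and Clec4e, or Clec7a and Clec4a1, had overlapping arrays.

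**Figure D1:**
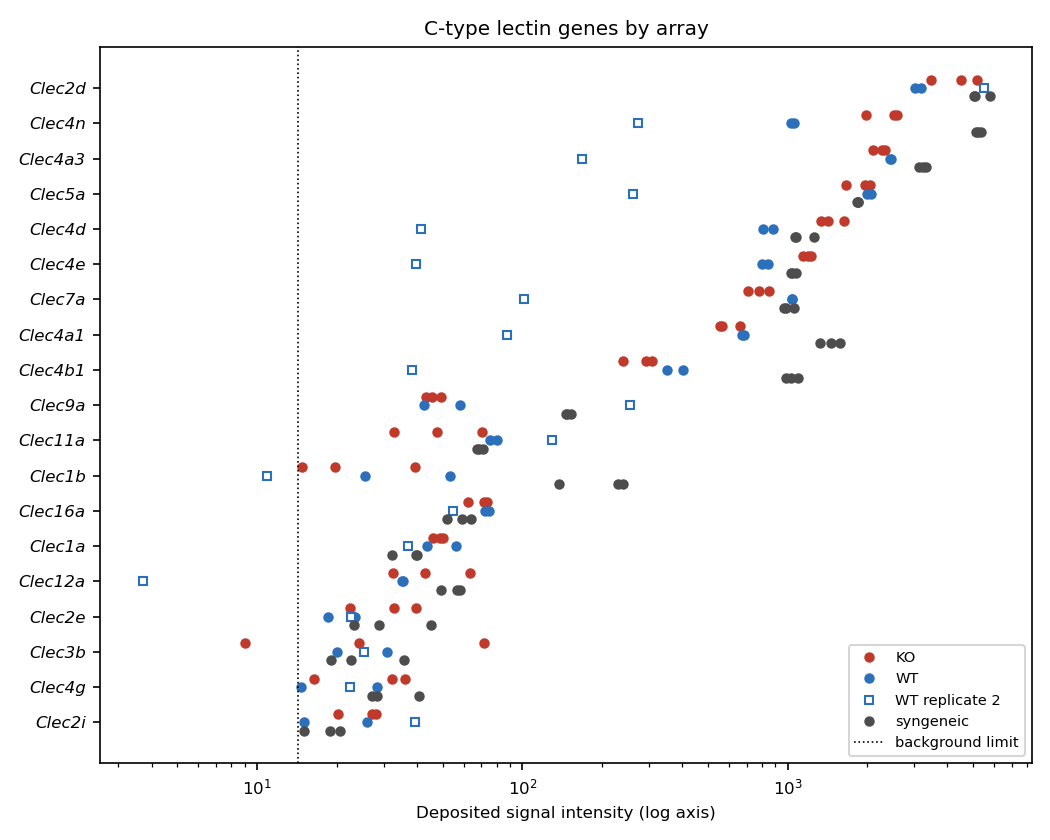
Deposited signal intensity (log axis) of the probe that stands for each of the 19 tested family genes, 1 point per array, for KO, WT and syngeneic hosts from top to bottom within a gene; the dotted line is the background limit of 14.3. WT replicate 2, drawn as an open square, lies far left of the other arrays for Clec4a3, Clec4d, Clec4e, Clec5a, Clec7a, Clec4a1 and Clec4b1 and to the right of them for Clec9a.

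Across the family, KO and WT hosts did not differ past the threshold when all 9 arrays were fitted. In limma's test, with Benjamini-Hochberg adjustment over 10871 genes, 0 of 19 family genes were called in KO vs WT, where 2.01% of all genes were called, and 3 had an unadjusted p under 0.05, against 18.9% of all genes. The median log2 difference was 0.20 for the family and -0.02 for all genes. Without WT replicate 2 the picture was another one: 4 genes rose and 2 fell, where 10.2% of all genes rose and 9.78% fell (20.0% called in all). The 4 that rose in KO cells were Clec4n, Clec4d, Clec4e and Clec2d, and the 2 that fell were Clec4b1 and Clec7a. The family median was then -0.02, against -0.01 for all genes.

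WT cells had lower signals than syngeneic cells for part of the family. With all 9 arrays, 3 genes fell in WT vs syngeneic (Clec4n, Clec4b1 and Clec1b) and 0 rose, where 5.64% of all genes fell and 4.80% rose (10.4% called in all). Without WT replicate 2, 9 fell and 0 rose, where 14.9% of all genes fell and 14.6% rose (29.6% called in all). The additional 6 were Clec4a1, Clec4a3, Clec4d, Clec4e, Clec2d and Clec9a. This comparison lies within 1 chip. The family median was -0.49 with all 9 arrays and -0.25 without WT replicate 2, against 0.04 for all genes under both.

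KO cells differed from syngeneic cells in 1 family gene with all 9 arrays, Clec1b, which fell, where 6.85% of all genes fell (11.9% called in all). In the fit, WT arrays enter this comparison only through the shared estimate of the spread. They also entered the quantile normalization, the filter and the choice of probe, and the fits on fewer arrays used the same normalized values. Without WT replicate 2, 7 genes fell (Clec1b, Clec4a1, Clec4a3, Clec4b1, Clec4n, Clec7a and Clec9a) and Clec4d rose, where 20.0% of all genes fell and 19.3% rose (39.3% called in all). A fit on the 3 KO and 3 syngeneic arrays alone called the same 8 genes, where 36.8% of all genes were called. The family share of 42.1% was thus near the background. The median difference was -0.11 for the family and 0.02 for all genes. The comparisons share arrays, so their values are given side by side and not as separate evidence.

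**Figure D2:**
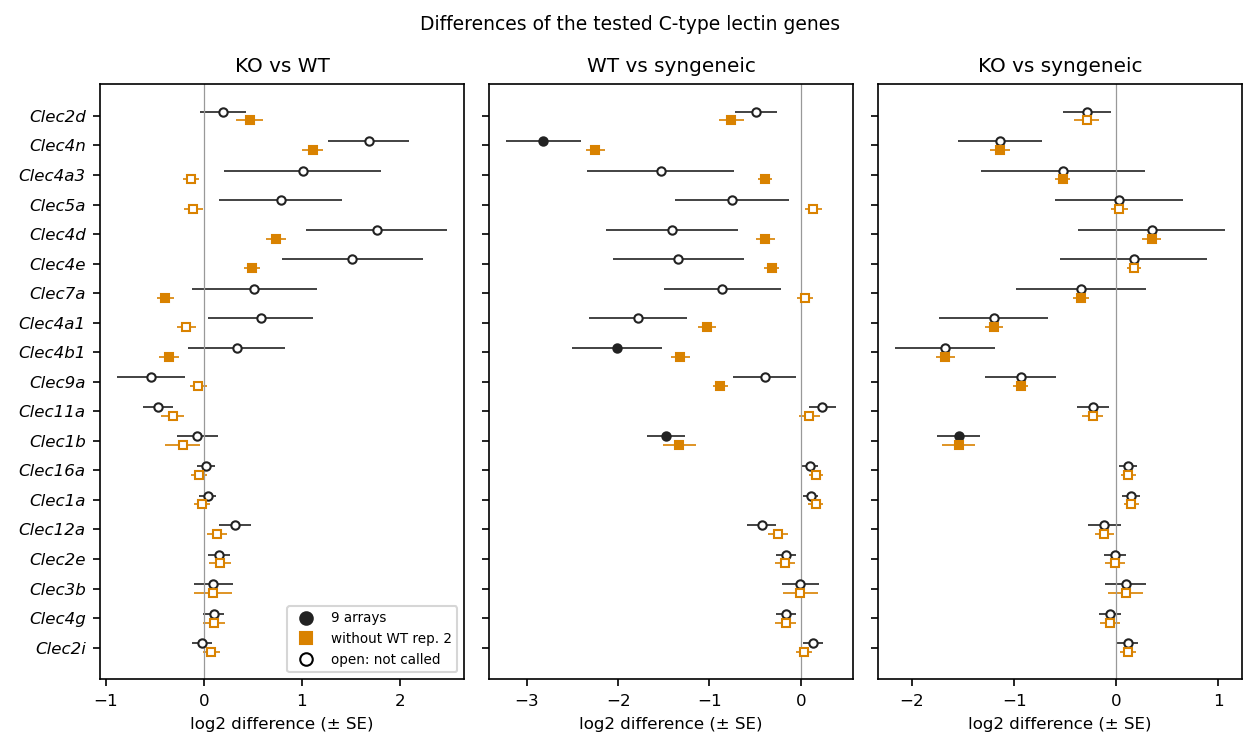
Log2 differences with standard errors for the 19 tested genes in KO vs WT, WT vs syngeneic and KO vs syngeneic, with all 9 arrays (black circles) and without WT replicate 2 (orange squares); filled symbols passed the adjusted threshold of 0.05. In KO vs WT and WT vs syngeneic the error bars of the bright Clec4 genes, Clec5a and Clec7a are shorter without WT replicate 2, and in KO vs WT the values of Clec4b1 and Clec7a are among those that lie on opposite sides of 0 under the 2 fits.

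The Clec4 genes on chromosome 6 lie side by side in the order Clec4a1, Clec4a3, Clec4a4, Clec4b1, Clec4a2, Clec4b2, Clec4n, Clec4d and Clec4e, with no other protein-coding gene between them in the RefSeq gene table; Clec4b2 was not analysed here. Their promoters are shown for 4 members that moved differently, as windows of 300 bases (250 before and 50 after the start) from RefSeq on build GRCm38.p6, read 5′ to 3′ along the gene's strand. Clec4a1 (chr6:122921598-122921897, plus strand) and Clec4b1 (chr6:123049712-123050011, plus strand) were lower in both allogeneic groups than in the syngeneic group. Clec4d (chr6:123261857-123262156, plus strand) and Clec4e (chr6:123289822-123290121, minus strand) were higher in KO than in WT arrays. Capitals mark matches on either strand to the PU.1 core GAGGAA, a C/EBP motif TTGCNNAA and an interferon response motif, which is GAAA, any 2 bases and GAAA.
Clec4a1: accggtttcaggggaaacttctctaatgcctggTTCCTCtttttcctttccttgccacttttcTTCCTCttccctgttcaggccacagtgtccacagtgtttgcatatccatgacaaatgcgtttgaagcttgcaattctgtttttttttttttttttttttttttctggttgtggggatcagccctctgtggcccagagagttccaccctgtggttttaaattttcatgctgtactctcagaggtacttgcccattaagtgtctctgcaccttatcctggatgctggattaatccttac
Clec4b1: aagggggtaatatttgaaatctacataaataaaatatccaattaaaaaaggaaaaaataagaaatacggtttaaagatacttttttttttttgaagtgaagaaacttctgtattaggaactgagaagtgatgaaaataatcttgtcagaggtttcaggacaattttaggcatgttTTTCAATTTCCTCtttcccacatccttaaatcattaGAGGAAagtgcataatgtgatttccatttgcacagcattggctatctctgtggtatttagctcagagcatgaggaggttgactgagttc
Clec4d: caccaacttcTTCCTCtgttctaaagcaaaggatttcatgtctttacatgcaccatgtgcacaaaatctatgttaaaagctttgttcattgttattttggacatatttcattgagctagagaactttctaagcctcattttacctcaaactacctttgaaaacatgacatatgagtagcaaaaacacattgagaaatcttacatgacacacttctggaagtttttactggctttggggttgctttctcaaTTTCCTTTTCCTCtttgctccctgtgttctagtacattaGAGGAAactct
Clec4e: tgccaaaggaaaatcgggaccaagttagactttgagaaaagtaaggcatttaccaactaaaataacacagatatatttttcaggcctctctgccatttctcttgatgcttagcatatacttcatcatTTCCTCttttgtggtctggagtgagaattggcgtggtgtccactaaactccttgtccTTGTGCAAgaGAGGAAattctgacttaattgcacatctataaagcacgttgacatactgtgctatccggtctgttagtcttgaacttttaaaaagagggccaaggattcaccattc
The PU.1 core, bound by a factor of myeloid development, was found in all 4 windows. It was in 14 of 27 family windows (13 of 24 family genes with a window) and in 28.3% of the 32851 windows searched. The interferon motif was found in Clec4b1 and Clec4d but not in Clec4a1 or Clec4e, and in 3.44% of all windows; in both it overlapped a PU.1 core match, so the capitals there are 1 run. The C/EBP motif was found in Clec4e alone of these 4, in 6 of 27 family windows (5 of 24 family genes) and in 10.8% of all windows. An NF-kB motif, also searched as GGGA, any 2 bases and TTCC, was in none of these 4. It was in 2 of 27 family windows (2 of 24 family genes) and in 1.47% of all windows. A match describes the letters only, and a window without one says nothing of the factor.

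Clec4n, or Dectin-2, recognises mannans of fungi and signals through the Fc receptor gamma chain. Its signals were 1973, 2519 and 2578 in KO arrays, 1034, 274 and 1059.5 in WT arrays and 5119.9, 5227 and 5342 in syngeneic arrays. The 3 groups did not overlap, with KO between WT and syngeneic. Clec4n fell by 2.82 ± 0.41 on the log2 scale in WT vs syngeneic (SE, adjusted p = 0.0039, limma), and fell by 2.25 ± 0.11 without WT replicate 2 (adjusted p = 1.79e-08). The call held under all 21 alternatives run. In KO vs WT the difference was 1.68 ± 0.41 (adjusted p = 0.0805), and without WT replicate 2 it was 1.11 ± 0.11 (adjusted p = 5.15e-05), with Clec4n higher in each KO array than in any WT array. KO vs syngeneic gave -1.14 ± 0.41 with all 9 arrays (adjusted p = 0.122) and -1.14 ± 0.10 without WT replicate 2 (adjusted p = 2.43e-06). The order of the groups matched that of the summed monocyte and macrophage markers given above. Of these 10 markers, 8 fell in WT vs syngeneic, 7 fell in KO vs syngeneic and 3 rose in KO vs WT with all 9 arrays. Of all genes, 5.64% fell in WT vs syngeneic, 6.85% fell in KO vs syngeneic and 2.01% were called in KO vs WT. With WT replicate 2 left out, 6 of the 10 markers rose and 2 fell in KO vs WT, where 10.2% of all genes rose and 9.78% fell. The sum is carried mainly by bright genes such as C1qb and Vcam1, and F13a1 and Ccr2 on the same list had another order. F13a1 read 1775.5, 1794 and 1303.5 in KO arrays, 7851, 2812.5 and 8231 in WT arrays and 7804, 6837 and 7920 in syngeneic arrays. Ccr2 read 559, 533 and 368 in KO arrays, 1352, 228 and 1397.5 in WT arrays and 1058, 1113 and 1062 in syngeneic arrays. In bulk RNA, fewer cells of a type and less RNA per cell cannot be told apart, and the part of these cells in the Clec4n result was not tested. The 3 genes most like Clec4n in log2 signal over the 9 arrays were Acp2 (r = 0.997), C1qb (r = 0.996) and Treml4 (r = 0.994). C1qb, a macrophage complement gene, is on the marker list. These r values describe 9 arrays in 3 groups.

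Clec4b1, or DCAR, is an activating receptor that also pairs with the gamma chain. Signals of the probe that stands for it, the one with the highest mean log2 value over the 9 arrays, were 307, 294 and 239 in KO arrays, 350.2, 38.4 and 402 in WT arrays and 989, 1026 and 1098 in syngeneic arrays. Every allogeneic array lay below every syngeneic one. Clec4b1 fell by 2.01 ± 0.49 in WT vs syngeneic (adjusted p = 0.0389, limma), a call kept in 8 of 20 alternatives that tested it (adjusted p up to 0.131), among them the fit without WT replicate 2 (fell by 1.32 ± 0.10, adjusted p = 1.38e-06). In KO vs syngeneic the difference was -1.68 ± 0.49 (adjusted p = 0.0652), and -1.68 ± 0.09 without WT replicate 2 (adjusted p = 4.95e-08). The KO vs WT difference was 0.34 ± 0.49 with all 9 arrays and -0.36 ± 0.10 (adjusted p = 0.0312) without WT replicate 2, so its sign depended on that array. A second Clec4b1 probe read 208.5, 155 and 116 in KO arrays, 329, 38.0 and 305 in WT arrays and 1442, 1569 and 1459 in syngeneic arrays, a wider gap in the same direction. With all 9 arrays this probe was called in KO vs syngeneic (log2 difference -2.80 ± 0.45, limma, adjusted p over all passing probes = 0.00585), and its KO vs WT difference was -0.15 ± 0.45, below 0 where that of the other probe was above.

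Clec4a1 and Clec4a3 belong to the DCIR group, relatives of the inhibitory receptor DCIR. Clec4a1 read 555, 567 and 661 in KO arrays, 673, 87.7 and 685 in WT arrays and 1580.2, 1458 and 1319 in syngeneic arrays. All allogeneic arrays were below the syngeneic ones, and the difference of WT from syngeneic was -1.78 ± 0.54 (adjusted p = 0.075, limma) with all 9 arrays and -1.02 ± 0.10 (adjusted p = 9.84e-06) without WT replicate 2. KO vs syngeneic gave -1.20 ± 0.54 (adjusted p = 0.205) and, without WT replicate 2, -1.20 ± 0.09 (adjusted p = 6.55e-07). Clec4a3 read 2096, 2330.4 and 2276 in KO arrays, 2463, 167 and 2433 in WT arrays and 3333, 3251 and 3125 in syngeneic arrays. Again the syngeneic arrays were the highest, by less than for Clec4a1. Its WT vs syngeneic difference was -1.54 ± 0.80 (adjusted p = 0.255), and -0.39 ± 0.08 (adjusted p = 0.0033) without WT replicate 2. In KO vs WT neither gene was called under either fit, and both differences turned sign with WT replicate 2. That of Clec4a1 was 0.58 ± 0.54 with all 9 arrays and -0.18 ± 0.10 without it. That of Clec4a3 was 1.01 ± 0.80 with all 9 arrays and -0.13 ± 0.08 without it. The genes most like Clec4a3 over the 9 arrays were Ankrd22 (r = 0.999), Gsdme (r = 0.999) and Ppp1r3d (r = 0.998), values in which WT replicate 2 is the extreme array.

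Clec4d (MCL) and Clec4e (Mincle) are activating receptors for glycolipids of mycobacteria and, for Mincle, a protein of dying cells, and they can form a complex with each other. Clec4d read 1626, 1423 and 1332 in KO arrays, 882, 41.6 and 811 in WT arrays and 1257, 1064.5 and 1076 in syngeneic arrays. Clec4e read 1145, 1226 and 1190.4 in KO arrays, 846, 39.6 and 802 in WT arrays and 1029, 1072 and 1036 in syngeneic arrays. For both genes the KO arrays were above all others and the WT arrays below all others. The KO vs WT difference of Clec4d was 1.76 ± 0.72 (adjusted p = 0.239, limma) with all 9 arrays and 0.74 ± 0.10 (adjusted p = 0.00064) without WT replicate 2. That of Clec4e was 1.52 ± 0.72 (adjusted p = 0.302), and 0.49 ± 0.08 (adjusted p = 0.0012) without WT replicate 2. On the probes that stand for them, both genes were thus called in KO vs WT when WT replicate 2 was left out or given a low weight. They were not called with all 9 arrays weighted equally. A second Clec4e probe had 470.2, 511 and 459 in KO arrays, 440.2, 15.5 and 451 in WT arrays and 687, 730.5 and 752 in syngeneic arrays. On this probe KO cells were below syngeneic cells, opposite to the brighter probe, whose KO vs syngeneic difference without WT replicate 2 was 0.17 ± 0.07 (adjusted p = 0.0678). The KO vs syngeneic difference of Clec4d was 0.35 ± 0.72 (adjusted p = 0.813) with all 9 arrays and 0.35 ± 0.09 (adjusted p = 0.0117) without WT replicate 2. Over the 9 arrays Clec4d and Clec4e had r = 0.992 with each other, and r = 0.899 over the 8 arrays without WT replicate 2.

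**Figure D3:**
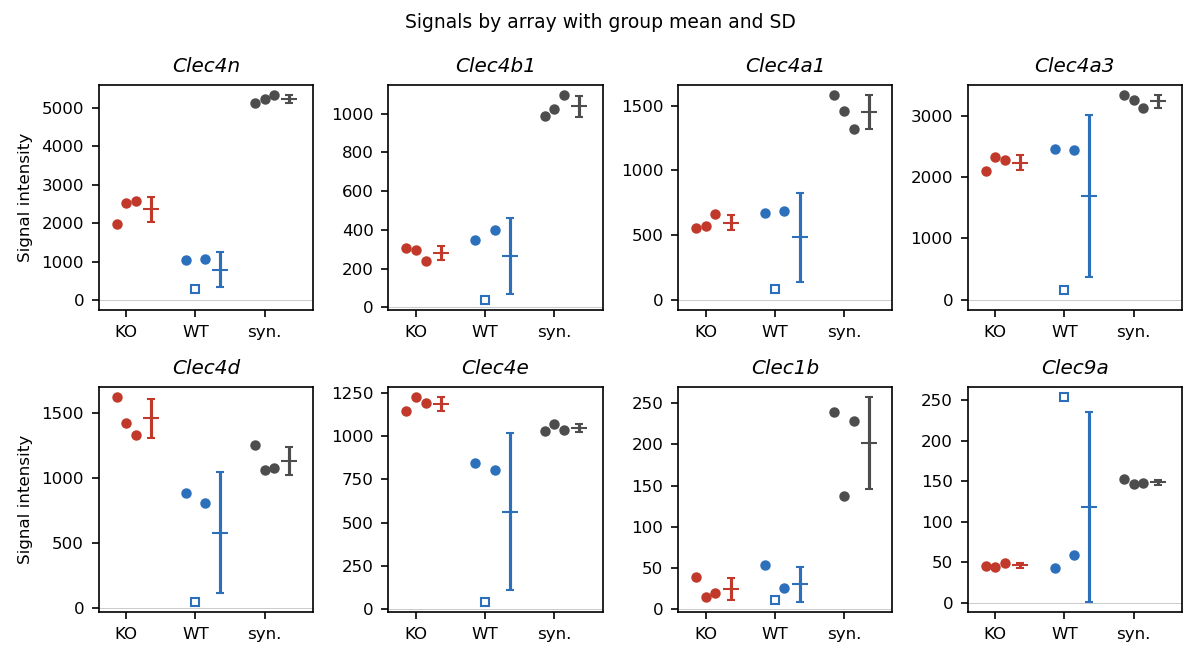
Signal intensity by array for 8 family genes in KO, WT and syngeneic (syn.) hosts, with the mean and SD of 3 arrays beside each group; the open square is WT replicate 2. Clec4n falls into 3 separate groups, Clec4b1, Clec4a1 and Clec1b are highest in syngeneic arrays, and Clec4d and Clec4e are highest in KO arrays.

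Among the Clec4 cluster, then, the sign in KO vs WT without WT replicate 2 differed between the ends of the row. The 3 tested genes at the Clec4a1 end had differences of -0.36 to -0.13, and the 3 at the Clec4n to Clec4e end had 0.49 to 1.11. Of the first 3, Clec4a1 and Clec4a3 were not called in that fit (adjusted p = 0.233 and 0.286, limma). With all 9 arrays the differences of all 6, on the probes that stand for them, were above 0. They were 0.34 to 1.01 for the first 3 and 1.52 to 1.76 for the others, so the split of signs rests on leaving out that array. The second Clec4b1 probe was below 0 with all 9 arrays. No test was made of the arrangement.

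**Figure D4:**
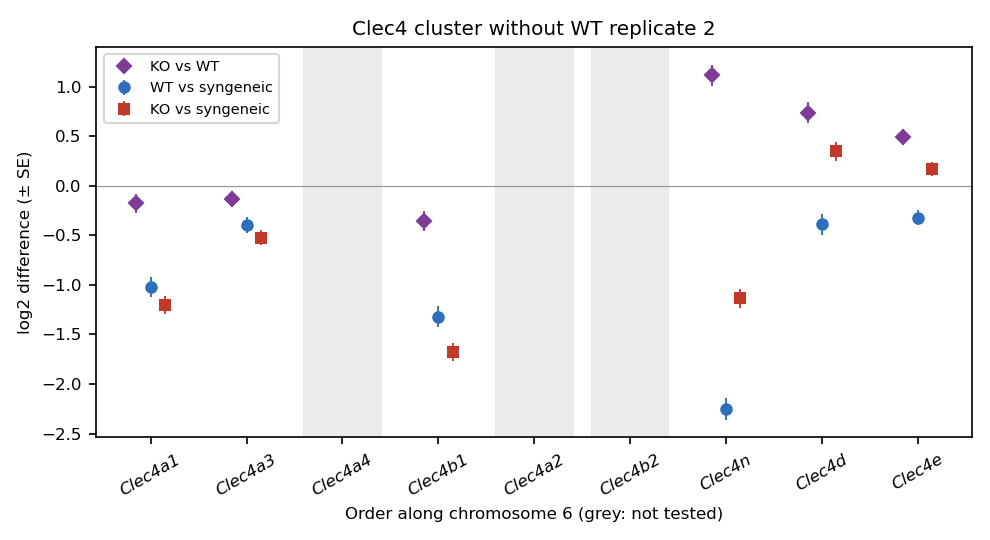
Log2 differences with standard errors, without WT replicate 2, for the Clec4 genes in their order along chromosome 6, for KO vs WT, WT vs syngeneic and KO vs syngeneic; grey columns were not tested. In this fit KO vs WT is below 0 for Clec4a1, Clec4a3 and Clec4b1 and above 0 for Clec4n, Clec4d and Clec4e. On the same probes, with all 9 arrays, it was above 0 for all 6.

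Clec7a, Clec5a and Clec12a are receptors of myeloid cells outside the cluster. Clec7a, or Dectin-1, binds beta-glucan of fungi and read 779, 848 and 709 in KO arrays, 1035, 101 and 1043 in WT arrays and 965, 990.1 and 1056 in syngeneic arrays. KO arrays were below the WT arrays except WT replicate 2, and below the syngeneic arrays. The KO vs WT difference was 0.52 ± 0.64 (adjusted p = 0.699, limma) with all 9 arrays and -0.39 ± 0.09 (adjusted p = 0.0107) without WT replicate 2, so the sign turned with that array. A second Clec7a probe was dim, at 18.1 to 42.5 in KO arrays, -1.9 to 32.9 in WT arrays and 20.7 to 41.9 in syngeneic arrays. On it the KO arrays overlapped both other groups, also when WT replicate 2 was set aside. Clec5a, or MDL-1, signals through DAP12 (Tyrobp) and read 2038, 1959.7 and 1654 in KO arrays, 1995, 262 and 2056 in WT arrays and 1842, 1850.4 and 1819.5 in syngeneic arrays. This was the brightest of its 4 passing probes, and on it, outside WT replicate 2, the KO arrays overlapped those of both other groups. On this probe Clec5a was not called in any comparison. Its KO vs WT difference was 0.78 ± 0.63 with all 9 arrays and -0.11 ± 0.09 without WT replicate 2, so its sign turned as well. The other passing probes differed. On 1 of them KO arrays (579 to 862) lay below syngeneic arrays (882 to 934). Another had KO arrays (60.1 to 69.2) above WT arrays (6.2 to 50.9). The remaining probe, at 167 to 242 in KO arrays, overlapped both other groups outside WT replicate 2. Clec12a, an inhibitory receptor of granulocytes and monocytes, was dim, with 32.6, 63.2 and 42.8 in KO arrays, 35.5, 3.7 and 35.3 in WT arrays and 58.3, 56.9 and 49.2 in syngeneic arrays. WT arrays were below syngeneic arrays without overlap, but the difference of -0.43 ± 0.16 was not called (adjusted p = 0.138). It was -0.25 ± 0.11 (adjusted p = 0.101) without WT replicate 2, whose signal of 3.7 was below the limit.

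Clec1b and Clec9a carry the shortened activation motif in their own tails. Clec1b, or CLEC-2, is the podoplanin receptor of platelets and some myeloid cells, and its signals were 39.4, 14.8 and 19.7 in KO arrays, 53.2, 10.9 and 25.5 in WT arrays and 239, 138 and 229 in syngeneic arrays. All 6 allogeneic arrays lay below all 3 syngeneic ones. Clec1b fell by 1.48 ± 0.21 in WT vs syngeneic (adjusted p = 0.0034, limma) and fell by 1.54 ± 0.21 in KO vs syngeneic (adjusted p = 0.0025), and both calls held in the 19 alternatives that tested it. The KO vs WT difference was -0.07 ± 0.21 (adjusted p = 0.888), and the KO and WT arrays overlapped. The 9 platelet markers summed to 228 to 269 in KO arrays, 219 to 1149 in WT arrays and 354 to 419.5 in syngeneic arrays, and Pf4 was below the limit on all arrays. The highest platelet sum was in WT replicate 2, where Clec1b read 10.9, its lowest value and below the limit. WT replicates 1 and 3 had platelet sums of 219 and 262. Outside WT replicate 2 the syngeneic arrays thus had the highest sums, as they had the highest Clec1b signals. The markers of the list differed, however. Itga2b read 66.5, 50.9 and 75.6 in KO arrays and 46.2, 42.0 and 45.3 in syngeneic arrays, and Gp6 was also higher in KO arrays. Without WT replicate 2, of 7 tested markers 2 rose and 5 fell in KO vs syngeneic (19.3% and 20.0% of all genes). In WT vs syngeneic 0 rose and 4 fell (14.6% and 14.9%). The part of platelets in the Clec1b values was not tested. The promoter window of Clec1b (chr6:129397047-129397346, plus strand, RefSeq, GRCm38.p6) is given because this gene was called in both comparisons with the syngeneic group. Capitals mark an NF-kB match and, nearer the end, the GATA motif AGATAA.
Clec1b: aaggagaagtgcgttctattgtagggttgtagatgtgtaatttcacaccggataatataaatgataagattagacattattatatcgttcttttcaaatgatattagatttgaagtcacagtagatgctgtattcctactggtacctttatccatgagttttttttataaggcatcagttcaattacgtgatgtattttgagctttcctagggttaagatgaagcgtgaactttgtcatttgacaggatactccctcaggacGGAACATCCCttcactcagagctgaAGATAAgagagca
The GATA motif was in 1 of 27 family windows, that of Clec1b, and in 11.2% of all windows searched.

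Clec9a, or DNGR-1, detects actin of dead cells on cross-presenting dendritic cells. It read 45.5, 43.4 and 49.2 in KO arrays, 42.7, 254 and 58.3 in WT arrays and 153, 146 and 148 in syngeneic arrays. The high WT value was that of WT replicate 2, and the other WT arrays overlapped the KO arrays. Clec9a was not called with all 9 arrays (WT vs syngeneic -0.40 ± 0.35, adjusted p = 0.495; KO vs syngeneic -0.94 ± 0.35, adjusted p = 0.131). Without WT replicate 2 it fell by 0.88 ± 0.08 in WT vs syngeneic (adjusted p = 7.49e-06, limma) and fell by 0.94 ± 0.07 in KO vs syngeneic (adjusted p = 1.26e-06). Of 9 dendritic cell markers, Flt3, Xcr1 and Cd209a were below the limit on all arrays, and the sum of the list was 394 to 461 in KO arrays, 355 to 686 in WT arrays and 697 to 816 in syngeneic arrays. The 4 tested markers of the list differed. Siglech, a plasmacytoid cell marker, read 24.9, 19.5 and 24.4 in KO arrays, 0.8, 215 and -1.0 in WT arrays and 167, 196 and 166 in syngeneic arrays, the same arrays being high as for Clec9a. Batf3, a factor of cross-presenting cells and the brightest of the 4, read 399, 336 and 330.0 in KO arrays, 322, 295 and 324 in WT arrays and 485, 555.5 and 522 in syngeneic arrays. It too was highest in syngeneic arrays, but it was lowest in WT replicate 2. Zbtb46 was highest in WT replicate 2 (133), and Ccr7 ranged from 4.9 to 20.3. The part of dendritic cells in the Clec9a values was not tested.

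Clec2d, the ligand Clr-b of the inhibitory NK receptor Nkrp1b, was the brightest family gene. Its signals were 5175, 4497 and 3475 in KO arrays, 3196, 5487 and 3011 in WT arrays and 5090.4, 5778 and 5061 in syngeneic arrays. WT replicate 2 was the highest WT array here, the reverse of the myeloid receptors. Clec2d was not called with all 9 arrays. Without WT replicate 2 it rose in KO vs WT by 0.47 ± 0.14 (adjusted p = 0.0336, limma) and fell by 0.76 ± 0.14 in WT vs syngeneic (adjusted p = 0.00155). The genes most like it over the 9 arrays were Eid2 (r = 0.935), Tbc1d9b (r = 0.932) and Slc22a5 (r = 0.930). Of its relatives, Clec2e (Clr-a) read 18.5 to 45.4 and Clec2i (Clr-g, a ligand of Nkrp1f) at most 39.4 over the 9 arrays, and neither was called under either fit. The WT vs syngeneic difference of Clec2e was -0.16 ± 0.11 with all 9 arrays. A second Clec2e probe read -1.0 to 44.6 and was above the limit on 2 KO and 2 WT arrays and on 0 syngeneic arrays. On it WT arrays (10.3 to 44.6) lay above syngeneic arrays (-1.0 to 7.3). It passed the filter through the allogeneic arrays alone, so no test of it is given.

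The remaining members were dim. Clec11a, a secreted growth factor of blood stem cells and bone, read 70.2, 47.6 and 32.9 in KO arrays, 75.3, 129.6 and 80.4 in WT arrays and 70.8, 67.4 and 68.9 in syngeneic arrays. KO arrays were below WT arrays without overlap, but the difference of -0.47 ± 0.15 was not called (adjusted p = 0.158, limma). Clec16a, an intracellular regulator of autophagy that is no membrane lectin, ranged from 52.2 to 74.8. Clec1a, a receptor for fungal melanin, ranged from 32.2 to 56.0, Clec3b (tetranectin, which binds plasminogen) from 9.0 to 71.5 and Clec4g (LSECtin of liver sinusoids) from 14.6 to 40.6. A second Clec4g probe was above the limit in the 3 syngeneic arrays alone, at 37.1, 24.4 and 25.6. It passed the filter through that group alone, so no test of it is given. Over all 19 genes, the arrays of the groups did not overlap for 4 genes in KO vs WT (23.4% of all genes), 9 in WT vs syngeneic (38.5%) and 10 in KO vs syngeneic (49.3%). The counts without WT replicate 2 were 9 in KO vs WT (46.3%) and 14 in WT vs syngeneic (60.7%).

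The signalling partners were followed in a list of 39 adaptors, kinases, phosphatases, target cytokines and counter-receptors, of which 34 were on the array and 29 were tested. Syk, Rel, Nlrp3, Il6 and Klrb1a were too dim to be tested, and genes of the list beyond those 34 were not analysed here. With all 9 arrays, 0 of 29 were called in KO vs WT and in KO vs syngeneic (3 and 7 at an unadjusted p under 0.05, a level that 18.9% and 25.8% of all genes reached), and 1 fell in WT vs syngeneic, where 5.64% of all genes fell. That gene was Inpp5d, the phosphatase SHIP-1 that restrains such receptors. It read 712, 764 and 759.5 in KO arrays, 648, 643 and 705 in WT arrays and 834, 896 and 964 in syngeneic arrays. Inpp5d fell by 0.40 ± 0.08 in WT vs syngeneic (adjusted p = 0.020, limma). Without WT replicate 2, 2 partners rose and 2 fell in KO vs WT, against 10.2% and 9.78% of all genes. Il1b, a cytokine induced through Card9, read 5262, 6252 and 5879.8 in KO arrays and 3329, 104 and 3162.5 in WT arrays, and rose by 0.82 ± 0.09 (adjusted p = 0.00012) in that fit. Il10 rose by 1.21 ± 0.20 (adjusted p = 0.0018), while Tnf fell by 1.02 ± 0.09 (adjusted p = 1.91e-05) and Klrb1f, the receptor of Clr-g, fell by 0.69 ± 0.09 (adjusted p = 0.00025). The cytokines below these receptors thus did not share 1 direction. In the same fit 3 partners rose in WT vs syngeneic, Fgr (log2 difference 0.48), Card9 (0.40) and Klrb1f (0.39), and 3 fell, Inpp5d (-0.37), Relb (-0.30) and Vav3 (-0.26), where 14.6% of all genes rose and 14.9% fell. In KO vs syngeneic 4 rose and 11 fell, where 19.3% of all genes rose and 20.0% fell. The 6 with the smallest p were Il10 (1.15), Fgr (0.71) and Il1b (0.56), which rose, and Tnf (-0.98), Pdpn (-0.43) and Vav3 (-0.34), which fell. The adaptors Fcer1g, Tyrobp and Card9 were named after their values were seen, because the receptors signal through them, and they differed in direction. Card9 rose by 0.34 ± 0.11 (adjusted p = 0.028, limma), while Fcer1g fell by 0.22 ± 0.07 (adjusted p = 0.029, limma) and Tyrobp fell by 0.26 ± 0.08 (adjusted p = 0.028).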

How the data were processed

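For 45281 probes on 9 arrays the deposited table gives signal intensities with their detection p-values. The authors had background-subtracted and quantile-normalized these intensities before deposit, as the values show, although the deposit labels them non-normalized. Of the signals 35.6% were at or below 0. The same signal recurs on different arrays, such as 28561.9 for Fcer1g in KO replicate 2 and for Retnlg in WT replicate 1. The upper quartile was 102 on KO replicate 1, and the highest signal over all arrays was 47219. GenomeStudio is named per the submitters' processing notes, with no version. Log2 values deposited in the series matrix equal log2 of these intensities within 1.1e-06 and were an alternative. The detection p-values as deposited carry no array name and were used only for an alternative filter. The scale and the fit followed earlier work on these data: limma's normexp with an offset of 50, quantile normalization, log2. The limit was the 95th percentile (14.3) of 1611 probes of sensory receptor and keratin-associated genes. A probe had to exceed it on 3 of 9 arrays (20750 did), and of these the one with the highest mean log2 value stood for each of 10871 genes. Names are those of the platform annotation (34885 probes with 1 symbol, 18 with several, 10378 with none), and gene IDs of all 30 members matched the reference. The fit used R 4.3.3 and limma 3.58.1 (lmFit and eBayes, 1 mean per group, Benjamini-Hochberg, threshold 0.05), and the script was tested on simulated data. Fold changes on offset signals understate the change of dim genes, and the 9 arrays limit the precision. Members, partner list and markers were chosen with earlier results of these data known. Every member tested is named; partners are named where called, at most 6 per comparison by p. Alternatives changed the correction, offset, normalization, filter, probe choice, array weights, arrays fitted and replicates.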

Additional observations from a re-analysis of the deposited data

How the results depend on the processing

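Of 1164 values of single family genes under the alternatives, 1061 stayed on their side of the threshold and, where not called, within the spread between arrays, 45 moved beyond it, 44 gained a call, 12 lost one and 2 were called with the other sign. The sign differed in 44 of the 1164, these 2 included, and 10 of those 44 were values without WT replicate 2. Called with the other sign were Clec4b1 and Clec7a in KO vs WT, whose differences with 1 array left out ranged from -0.36 to 0.72 for Clec4b1 and from -0.39 to 0.97 for Clec7a, the lowest being those without WT replicate 2. Family genes called in KO vs WT (0) numbered 5 with array weights and 0 to 6 when 1 array was left out. In WT vs syngeneic (3) they numbered 1 with the detection p filter, 10 with array weights and 2 to 9 with 1 array left out. In KO vs syngeneic (1) they numbered 0 above the limit on all 9 arrays and 0 with the detection p filter, neither of which tests Clec1b, 2 with the mean of passing probes, 8 with array weights, 8 with only the 6 arrays compared and 1 to 8 with 1 array left out. Partners called in KO vs WT (0) numbered 7 with array weights and 0 to 4 with 1 array left out. In WT vs syngeneic (1) they numbered 0 in the series matrix values, 8 with array weights, 0 with only the 6 arrays and 0 to 6 with 1 left out. In KO vs syngeneic (0) they numbered 12 with array weights, 14 with only the 6 arrays and 0 to 15 with 1 left out. The highest count in each of these ranges came without WT replicate 2, whose array weight was 0.0415. Over all genes, its removal moved the calls to 2177 in KO vs WT (218 with all 9 arrays), 3214 in WT vs syngeneic (1135) and 4269 in KO vs syngeneic (1298). For array weights, the filters, the mean of passing probes, the series matrix values and other arrays left out, the share of all genes called is not given here. Family and partner counts under those settings thus cannot be read against a background.

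Deviations from the group mean were compared between samples with the same replicate number, and r lay between -0.167 and 0.111. WT replicate 2 shapes the deviations of the whole WT group, so the check cannot decide on a pairing where WT is compared. Between KO and syngeneic samples r was 0.014, -0.069 and 0.048, which gave no sign of a pairing. With a replicate block, 0 family genes were called in KO vs WT, 2 in WT vs syngeneic (Clec4b1 was lost, adjusted p = 0.0637, limma) and 1 in KO vs syngeneic; over all genes the block gave 31, 717 and 903 calls. The 3 arrays per group and signals near the limit, as for Clec1b, Clec3b and Clec12a, limit what could be detected.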
